A study of Mus musculus with 2 samples.

Results

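The rod phototransduction cascade was described through 9 of the 32285 genes in the feature list, matched by symbol: the transducin subunits *Gnat1*, *Gnb1* and *Gngt1*, the phosphodiesterase subunits *Pde6a*, *Pde6b* and *Pde6g*, the channel subunits *Cnga1* and *Cngb1*, and the arrestin *Sag*. They were measured by droplet-based 3′ scRNA-Seq of whole retina from male C57BL/6J mice aged 7 months, in 1 WT library and 1 library labelled ND6. The ND6 mice carry ND6 13997 G>A, a mutation in the mtDNA gene of a complex I subunit, and strain, sex and age are the same for both libraries in the labels. The mutation changes a base of the mtDNA, which gene counts do not show, so the counts do not check the label. How many mice each library holds is not given in the sources used here. With 1 library per genotype the spread between mice is unknown, no test was made, and each 95% interval covers counting error only.

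Rods turn light into an electrical signal by a chain of proteins in the outer segment. A receptor that has caught light switches on transducin, transducin releases the inhibitory subunits from phosphodiesterase, phosphodiesterase breaks down cyclic GMP, and the cyclic GMP-gated channel closes. Arrestin then binds the phosphorylated receptor and ends its activity. Cones run the same chain with their own set of subunits.

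The WT library held 77958836 UMIs and the ND6 library 80358255. A barcode was kept as a cell if it had over 400 UMIs and over 200 genes and if mtDNA-encoded genes gave no more than 20% of its UMIs. This left 12529 WT cells with a median of 1878 UMIs and 18395 ND6 cells with a median of 1416 UMIs. The mtDNA limit removed 10647 WT and 3861 ND6 barcodes. Clustering without the 9 members, the cone counterparts other than *Arr3*, 15 other cascade genes, *Malat1* and the mtDNA-encoded genes gave 17 clusters. Of these, 8 were rod-like and held 9785 WT cells and 13249 ND6 cells, and each had at least 6 of 8 rod markers raised (among them *Nrl*, *Nr2e3*, *Reep6*, *Rom1* and *Prph2*, and no member of the cascade described here). The other classes were cone-like, bipolar-like, amacrine-like, Müller-like, microglia-like, RPE-like and red-blood-cell-like, and 1 cluster led by *Nefl* and *Glul* (998 WT and 1383 ND6 cells) stayed unnamed. A set of 59 cell barcodes occurred in both libraries, or 0.471% of WT and 0.321% of ND6 cells.

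RefSeq promoter windows of the GRCm38.p6 build (mm10) were on hand for 6 of the 9 members. Each was read over the 250 bases before the annotated start, 5′ to 3′ on the gene's strand, for TAATCC, the core bound by Crx-type homeodomain factors, and TGCTGA, a half-site of the Maf-type factor Nrl, on both strands (GGATTA and TCAGCA on the other). TAATCC was found in 4 of the 6 windows and in 6.25% of all 32851 windows, and TGCTGA in 2 of the 6 and in 16.1% of all. The windows of 4 members are shown because these members stand for the different patterns below: *Gnb1*, a subunit used by many cell types and lower in rods rich in *Malat1*, *Pde6b*, which was higher there, and *Cngb1* and *Sag*, whose ratios lay within 0.1 of 0 on the log2 scale in both libraries. Capitals mark either motif. They overlap no exon in GENCODE M21 and lie at chr4:155491111-155491360 on the plus strand (*Gnb1*), chr5:108388123-108388372 on the plus strand (*Pde6b*), chr8:95306586-95306835 on the minus strand (*Cngb1*) and chr1:87803430-87803679 on the plus strand (*Sag*).
Gnb1: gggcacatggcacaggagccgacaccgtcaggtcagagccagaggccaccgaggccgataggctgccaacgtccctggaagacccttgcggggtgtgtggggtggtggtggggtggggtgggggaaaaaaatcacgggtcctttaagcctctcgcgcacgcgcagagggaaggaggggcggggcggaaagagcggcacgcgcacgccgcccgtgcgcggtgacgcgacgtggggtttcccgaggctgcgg
Pde6b: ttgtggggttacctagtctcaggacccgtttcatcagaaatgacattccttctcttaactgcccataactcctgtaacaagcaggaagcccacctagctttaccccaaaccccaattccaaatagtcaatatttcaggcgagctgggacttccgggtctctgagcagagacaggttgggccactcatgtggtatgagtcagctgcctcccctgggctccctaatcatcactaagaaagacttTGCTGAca
Cngb1: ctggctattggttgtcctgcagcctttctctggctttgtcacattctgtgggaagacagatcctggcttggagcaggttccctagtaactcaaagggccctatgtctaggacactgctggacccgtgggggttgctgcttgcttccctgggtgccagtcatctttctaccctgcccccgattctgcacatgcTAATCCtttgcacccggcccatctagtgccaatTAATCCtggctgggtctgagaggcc
Sag: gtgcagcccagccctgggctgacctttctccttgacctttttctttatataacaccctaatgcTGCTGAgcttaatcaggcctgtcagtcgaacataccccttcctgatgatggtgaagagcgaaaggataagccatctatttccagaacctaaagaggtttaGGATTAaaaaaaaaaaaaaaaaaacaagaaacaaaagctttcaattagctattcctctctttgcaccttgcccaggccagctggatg
The *Gnb1* window, rich in G and C, held neither motif. The *Cngb1* window held TAATCC 2 times, 58 to 53 and 25 to 20 bases before the start. The *Sag* window held TAATCC on the reverse strand 87 to 82 bases before the start and TGCTGA 187 to 182 bases before it, and 0.962% of all windows held both motifs. In *Pde6b*, TGCTGA lay 8 to 3 bases before the start. A match is a run of letters, and no binding was measured here.

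The 9 genes took 6.05% of the UMIs of WT rods and 6.08% of those of ND6 rods. Levels are given as CPM, the UMIs of a gene per 1000000 UMIs summed over a group of cells. A 3′ library counts each captured transcript once, so these levels were not divided by length, but genes can still differ in how well they are captured. *Gngt1*, the γ subunit of rod transducin, was the most abundant member in both libraries, with 16466 CPM in WT and 12546 CPM in ND6 rods. *Sag* followed with 10619 and 12062 CPM. The catalytic subunits of phosphodiesterase stood far below their inhibitor, with *Pde6a* at 1721 and 2209 CPM and *Pde6b* at 2386 and 2429 CPM against *Pde6g* at 8827 and 8789 CPM. The channel subunits were unequal too, *Cnga1* at 2942 and 3045 CPM and *Cngb1*, the lowest member, at 1370.18 and 1312 CPM. *Gnat1*, the α subunit that binds GTP, had 8556 and 9316 CPM and *Gnb1*, the β subunit, 7582 and 9067 CPM. The order of the 9 was the same in both libraries except that *Pde6g* stood above *Gnat1* and *Gnb1* in WT and below both in ND6. By the annotation of mm10, *Gngt1* lies at chr6:3993792-3997436 on the plus strand with 2 exons in its longest transcript, *Pde6g* at chr11:120447605-120453500 on the minus strand with 4, and *Gnat1* at chr9:107674474-107679712 on the minus strand with 8.

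Rods were then divided by the share of their UMIs that came from *Malat1*, a long noncoding RNA kept in the nucleus. Rods with at least 3% were called rich and rods with under 1.5% poor. In WT, 2924 rods (29.9%) were rich and 6094 (62.3%) poor, and in ND6 2907 (21.9%) were rich and 9436 (71.2%) poor. Rich rods held more UMIs, with a median of 3610.0 against 1433.5 in WT and 2201 against 1237.5 in ND6. The poor rods had the higher share of mtDNA-encoded UMIs, 12.9% against 6.67% in WT and 9.40% against 5.20% in ND6, and of ribosomal protein UMIs, 12.6% against 5.32% and 11.7% against 5.55%. The nuclear transcript *Kcnq1ot1* followed *Malat1*, at 238 CPM in rich and 10.5 CPM in poor WT rods and 338 and 28.8 CPM in ND6 rods. So did *Neat1*, at 7.04 and 1.82 CPM in WT and 14.2 and 2.78 CPM in ND6. *Meg3*, a further noncoding RNA on the same list, did not, at 58.4 CPM in rich and 103 CPM in poor ND6 rods. In WT it had 1.52 and 2.59 CPM, from 28 and 27 UMIs, with intervals that overlapped. Values within ranges of depth are given below, but the part of depth, mtDNA share and ribosomal share in the differences was not tested.

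The 9 genes together took 5.14% of the UMIs of rich WT rods (5.13 to 5.15) and 7.60% of those of poor WT rods (7.58 to 7.61). In ND6 the shares were 4.78% (4.76 to 4.79) and 7.03% (7.02 to 7.05). The summed cascade was lower in rich rods by nearly the same amount in both libraries, with log2 ratios of −0.56 in each. These are shares of UMIs, and the count per rod went the other way. In WT, 2924 rich rods held 949563 UMIs of the members and 6094 poor rods 792054. In ND6, 2907 rich rods held 570181 and 9436 poor rods 1137552. Of the 9 members, 2 in WT and 4 in ND6 were lower in rich rods by a log2 ratio of at least 0.5, where 8.85% of 11627 genes in WT and 10.4% of 12309 genes in ND6 were. By any amount, 6 of 9 were lower in WT and 7 of 9 in ND6, against 20.6% and 25.6% of all genes. The median of the members was −0.26 in WT and −0.35 in ND6, and that of all genes 0.83 and 0.58, since most genes took a larger share in rich rods. No member was higher by 0.5, which 62.9% and 53.6% of genes were.

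The transducin subunits were all lower in rich rods. *Gngt1* differed most of the 9 members, with 11473 CPM in rich and 25811 CPM in poor WT rods and 7723 and 16639 CPM in ND6 rods, log2 ratios of −1.17 (−1.18 to −1.16) and −1.11 (−1.12 to −1.10). Only 1.27% of all genes in WT and 1.28% in ND6 had a lower ratio. *Gnat1* stood at 7468 and 9810 CPM in WT and at 7261 and 10278 CPM in ND6, log2 ratios of −0.39 and −0.50. Within ranges of depth its ratio was lower than that, from −0.56 to −1.24 in WT and from −0.67 to −1.27 in ND6. *Gnb1* stood at 6665 and 9086 CPM in WT and at 6838 and 10672 CPM in ND6, log2 ratios of −0.45 and −0.64. The 3 subunits did not keep 1 proportion: *Gngt1* was 2.63 times *Gnat1* in poor WT rods and 1.54 times in rich ones, and 1.62 and 1.06 times in ND6.

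Over all rods, the inhibitory subunit of phosphodiesterase was lower in rich rods and the catalytic *Pde6b* higher in both libraries, while *Pde6a* was nearly level in ND6. Within ranges of depth *Pde6a* was below 0 in each, but in WT its interval held 0 from 1000 UMIs up. *Pde6b* lay between −0.050 and 0.14 from 1000 UMIs up. *Pde6g*, the inhibitory γ subunit, had 6692 CPM in rich and 12782 CPM in poor WT rods and 5618 and 11424 CPM in ND6 rods, log2 ratios of −0.93 (−0.94 to −0.92) and −1.02 (−1.04 to −1.01). *Pde6b*, the catalytic β subunit, was higher in rich rods in both libraries, at 2519 against 1962 CPM in WT and 2583 against 2159.8 CPM in ND6, log2 ratios of 0.36 (0.34 to 0.38) and 0.26 (0.24 to 0.28). *Pde6a*, the catalytic α subunit, was higher in rich WT rods, at 1804 against 1460.05 CPM with a log2 ratio of 0.31. In ND6 it was nearly level at 2161 and 2111 CPM, a log2 ratio of 0.034 (0.010 to 0.057). That ratio fell below 0 as a mean over cells, with marker classes, with *Malat1* thresholds of 5% and 1%, and thinned to 400 UMIs. Even so, only 32.1% of all genes in WT and 35.7% in ND6 had a lower ratio than *Pde6b*. The level of *Pde6g* was 6.52 times that of *Pde6b* in poor and 2.66 times in rich WT rods, and 5.29 and 2.17 times in ND6.

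The channel subunits and the arrestin all lay within a log2 ratio of 0.5 of 0. *Cnga1*, the subunit that can form channels by itself, stood at 2741 and 3277 CPM in rich and poor WT rods and at 2623 and 3347 CPM in ND6 rods, log2 ratios of −0.26 and −0.35. *Cngb1*, the modulatory subunit, stood at 1347 and 1432 CPM in WT, a log2 ratio of −0.088, and at 1303 and 1315 CPM in ND6, where the interval of the ratio (−0.044 to 0.016) held 0. *Sag* stood at 10691 and 10332 CPM in WT and at 11643 and 12403 CPM in ND6, log2 ratios of 0.049 and −0.091. Its direction differed between the libraries and both values lay closer to 0 than those of *Gngt1* and *Pde6g*.

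**Figure D1:**
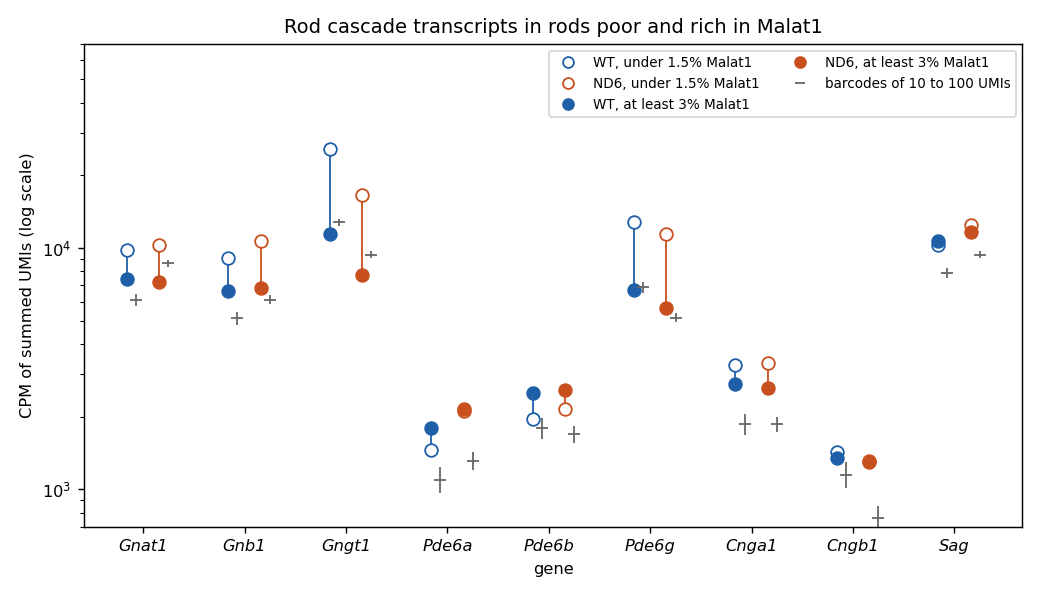
Level of each of the 9 members in CPM (log axis) in rods with under 1.5% (open circles) and at least 3% (filled circles) of their UMIs from Malat1, in the WT (blue) and ND6 (orange) libraries. Grey dashes give barcodes of 10 to 100 UMIs with their 95% Poisson interval, and a line joins the rods of 1 library. The longest lines are those of *Gngt1* and *Pde6g*, which reached 25811 and 12782 CPM in poor WT rods, and *Pde6b* is the member whose filled circle is the higher one by the most in both libraries.

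Across 8 ranges of the *Malat1* share the members followed 3 courses. *Gngt1*, *Pde6g* and *Gnb1* fell at each of the 7 steps in both libraries. From the lowest range (under 0.5%) to the highest (8% or more), *Gngt1* went from 26635 to 7281 CPM in WT and from 17644 to 4796 CPM in ND6, a 3.66-fold and a 3.68-fold difference. *Pde6g* differed 2.91-fold and 3.21-fold and *Gnb1* 1.79-fold and 2.23-fold between the same ends. *Gnat1*, *Pde6a* and *Pde6b* were highest in the middle. *Gnat1* peaked at 10880 CPM in WT rods with 1.5% to 2% and at 12539 CPM in ND6 rods with 1% to 1.5%, and was lowest in the highest range at 4516 and 4465 CPM. *Pde6b* peaked at 2747 and 2894 CPM in rods with 1% to 1.5% and was lowest under 0.5% in both libraries, at 1882 and 1994 CPM. *Cnga1* fell at 5 of 7 steps in WT and at 7 of 7 in ND6. *Sag* and *Cngb1* stayed nearly level, with highest over lowest ratios of 1.18 and 1.15 for *Sag* and of 1.14 and 1.12 for *Cngb1*. The ranges also differed in size, depth and mtDNA share: in WT, 5787 rods lay under 0.5% with 13.3% mtDNA-encoded UMIs, and 125 lay at 1% to 1.5% with 8.97%.

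**Figure D2:**
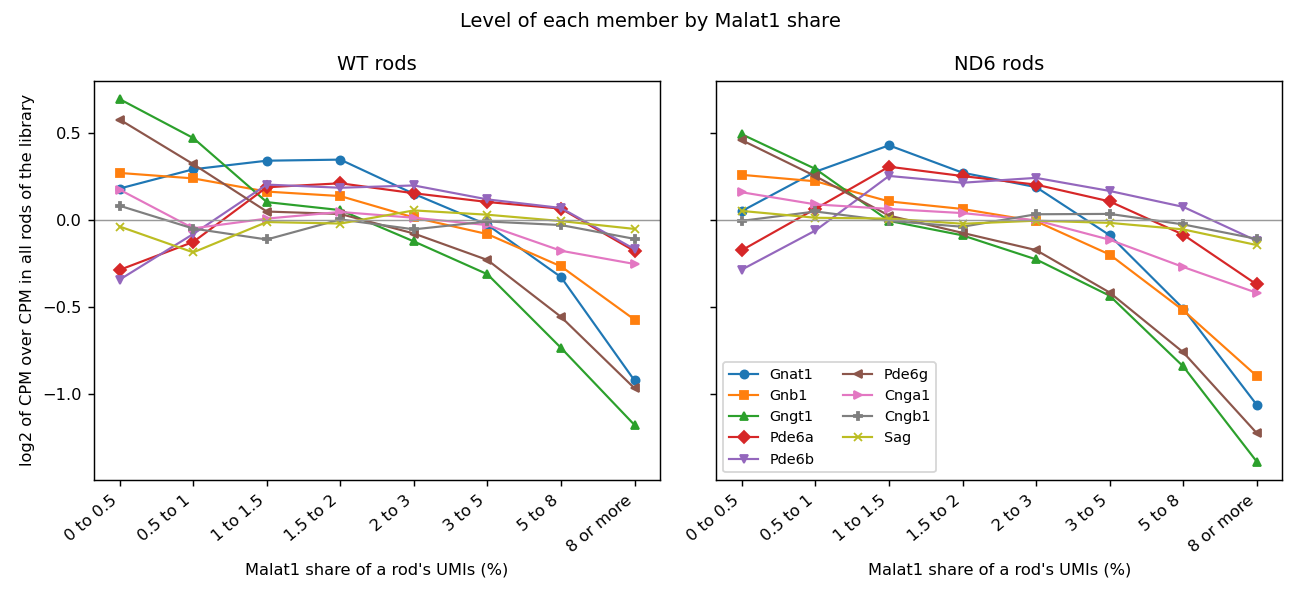
Level of each member in rods of 8 ranges of the Malat1 share of UMIs, as the log2 of its CPM over its CPM in all rods of that library, for WT (left) and ND6 (right). Each line is 1 gene, and the grey line marks the level in all rods. *Gngt1* and *Pde6g* fall from left to right, *Gnat1*, *Pde6a* and *Pde6b* bulge at 1% to 3%, and *Sag* and *Cngb1* stay close to 0.

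The summed cascade was lower in rich rods within each range of depth as well. Among rods of 1000 to 2000 UMIs, with 471 rich and 3720 poor rods in WT and 866 and 5405 in ND6, the log2 ratio of the sum was −0.87 in WT and −0.76 in ND6. Among rods of at least 5000 UMIs, with 1034 rich and 88 poor rods in WT and 642 and 342 in ND6, it was −0.44 and −0.49. *Gngt1* was lower in rich rods in all 8 strata of depth and library, from −0.82 to −1.50, and *Pde6g* from −0.61 to −1.31. *Gnat1* also varied with depth, at −1.24 and −1.27 among rods under 1000 UMIs and at −0.56 and −0.68 among those of at least 5000. The log2 ratio of *Pde6b* lay between −0.050 and 0.14 in the strata of 1000 UMIs or more, and in rods under 1000 UMIs it was 0.30 in WT and −0.0062 in ND6. The ratio of *Pde6a* was below 0 in each of the 8 strata, from −0.0014 to −0.59, although its ratio over all rods was above 0 in both libraries. In WT its interval held 0 at 1000 to 2000 UMIs (−0.20 to 0.0020), 2000 to 5000 (−0.055 to 0.053) and at least 5000 (−0.12 to 0.015).

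Length of the transcript moved with the *Malat1* share over the whole transcriptome. Among genes whose longest GENCODE M21 transcript was under 1000 bases, the median log2 ratio of rich over poor rods was −0.26 in WT and −0.17 in ND6, and among those of at least 8000 bases it was 1.29 and 0.90. The 4 members with the longest transcripts, *Cngb1* (6189 bases), *Sag* (4727), *Pde6a* (4588) and *Pde6b* (4088), were also the 4 with the highest ratios in both libraries. Each member was also set beside the median ratio of genes of 2000 to 4000 or of 4000 to 8000 bases, by its own length. All 9 members lay below that median, by 0.77 to 1.97 in WT and by 0.53 to 1.68 in ND6 on the log2 scale. *Gngt1* was the farthest below and *Pde6b* the least far in both libraries. The share of genes in each range that lay as low was not computed. The longest annotated transcript need not be the one that rods make, and the part of length was not tested further.

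The other genes of the rod cascade were split in direction, but were lower in rich rods more often than all genes were. Of 15 such genes, 7 were lower and 8 higher in rich WT rods, where 20.6% of all genes were lower. In ND6, 8 were lower and 7 higher, where 25.6% of all genes were lower. *Rcvrn*, the calcium sensor recoverin, was the lowest of the 15, with 3608 CPM in rich and 5783 CPM in poor WT rods and 2709 and 4899 CPM in ND6 rods, log2 ratios of −0.68 and −0.86. *Ppef2*, a phosphatase of photoreceptors, was the highest at 1.05 and 0.82, with 132 against 63.8 CPM in WT and 112 against 63.6 CPM in ND6. Of the 7 cone counterparts with at least 20 UMIs, 5 were lower in rich rods in both libraries. The share of all genes lower in both libraries was not computed. *Pde6c* was level in WT at 3.46 and 3.45 CPM and lower in ND6 at 9.13 and 11.4 CPM. Rods held the cone counterparts only in traces: *Gnat2* had 8.77 and 13.9 CPM in WT against 822 CPM in cone-like cells. *Gnb3*, the β subunit of cone transducin, was higher in rich rods in both libraries, at 102 and 56.2 CPM in WT and at 129.98 and 115 CPM in ND6.

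The members also varied between the rod-like clusters. Over the 8 rod-like clusters *Gngt1* ranged from 8357 to 28165 CPM in WT and from 5609 to 19246 CPM in ND6, and *Gnat1* from 4264 to 13224 CPM and from 4425 to 15167 CPM. *Sag* was the most even member, from 9607 to 10984 CPM in WT and from 11319 to 12974 CPM in ND6. These clusters were formed without the 9 genes, and the values are given as a description.

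Between the libraries, the summed cascade of all rods was nearly equal, at 60469.9 CPM in WT and 60775 CPM in ND6, a log2 ratio of ND6 over WT of 0.0073 (0.0045 to 0.0100). Within rich rods the ratio was −0.11, from 51400.4 to 47752 CPM, and within poor rods it was −0.11 as well, from 75952 to 70349 CPM. Poor rods, in which the cascade took the larger share of UMIs, gave 30.1% of the UMIs of WT rods and 47.5% of those of ND6 rods. Both groups were thus lower in ND6, while the group with the larger cascade share gave more of the UMIs of ND6 rods. Without the mtDNA limit, which removed more WT than ND6 barcodes, the ratio was −0.13 in rich rods and turned to 0.0088 in poor rods. Without *Gngt1*, the remaining 8 genes gave 0.13 over all rods, 0.0037 in rich rods and 0.099 in poor rods, a comparison chosen after its values were seen.

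No member passed a log2 ratio of 0.5 between the libraries in either direction over all rods, where 19.5% of 13415 genes were higher and 8.16% lower in ND6 by that much. In rich rods 1 member, *Gngt1*, was lower by 0.5, as were 5.32% of genes, and 0 were higher, as were 20.2%. In poor rods *Gngt1* was lower, as were 4.3% of genes, and *Pde6a* higher, as were 29.9%. The members' median was 0.050 over all rods beside 0.024 for all genes, −0.040 beside 0.072 in rich rods, and 0.067 beside 0.25 in poor rods.

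Of the transducin subunits, *Gngt1* was lower in ND6, with log2 ratios of −0.39 (−0.40 to −0.39) over all rods, −0.57 in rich and −0.63 in poor rods. *Gnb1* was higher, with ratios of 0.26 over all rods, 0.037 in rich and 0.23 in poor rods. *Gnat1* had 0.12 over all rods and went opposite ways in the 2 groups, −0.040 (−0.053 to −0.028) in rich and 0.067 (0.056 to 0.078) in poor rods. Of the phosphodiesterase subunits, *Pde6a* had the highest ratio of the 9 members in each set of rods, 0.36 over all, 0.26 in rich and 0.53 in poor rods. *Pde6b* had 0.026, 0.037 and 0.14. *Pde6g* had −0.0062 over all rods, with an interval (−0.014 to 0.0011) that held 0, and −0.25 in rich and −0.16 in poor rods. *Cnga1* had 0.050, −0.063 and 0.031, and *Cngb1* −0.063, −0.049 and −0.12. *Sag* was higher in ND6 in each set, with 0.18, 0.12 and 0.26.

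*Gngt1* and *Pde6a* stood at the ends of the order in most other classes as well. *Gngt1* was the lowest of the 9 members in 6 of the 7 other classes, and lower in ND6 in 5 of the 7, with ratios from −0.51 in microglia-like to 0.15 in amacrine-like cells. *Pde6a* was the highest in 5 of the 7 and higher in 6 of the 7. In barcodes of 10 to 100 UMIs, *Gngt1* had 12766 CPM in WT and 9363 CPM in ND6, a ratio of −0.45, and *Pde6a* 1097 and 1310.09 CPM, a ratio of 0.26. The order of the members there was not that of rods: *Cngb1* was the lowest at −0.59 and *Gnat1* the highest at 0.51, and *Pde6g* stood at −0.42. In barcodes of over 100 and up to 200 UMIs the ends were those of rods. *Gngt1* had the lowest ratio there (13578 CPM in WT, 9327 in ND6) and *Pde6a* the highest (678 and 1113 CPM). So it was at over 200 and up to 400 UMIs, with 9670 and 7755 CPM for *Gngt1* and 497 and 1005 CPM for *Pde6a*. Barcodes of 10 to 100 UMIs are here taken to hold mostly RNA free in the cell suspension. Whether a difference arose in rods, in free RNA or in the making of the library cannot be told apart. mtDNA-encoded UMIs took 8.77% in WT rods and 7.37% in ND6 rods, and 18.0% and 8.72% in barcodes of 10 to 100 UMIs. The median depth of rods was 1769 and 1340 UMIs. The part of depth and mtDNA share was not tested.

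**Figure D3:**
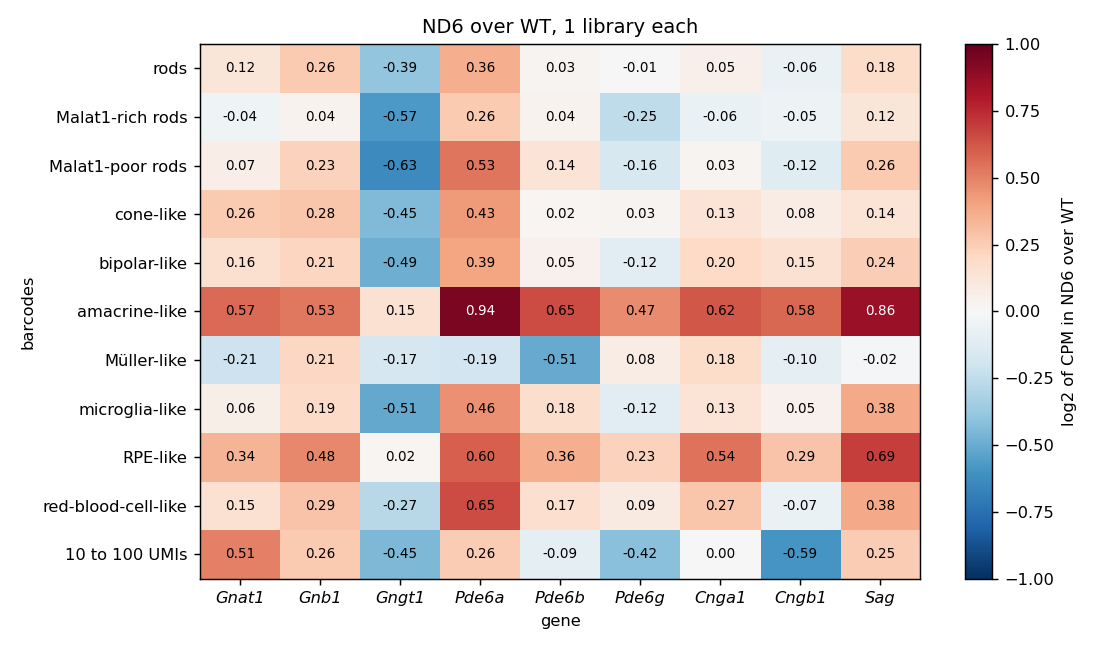
The log2 ratio of CPM in the ND6 library over the WT library (1 library each) for the 9 members (columns) in rods, in rods rich and poor in Malat1, in 7 other classes and in barcodes of 10 to 100 UMIs (rows). Red marks a higher and blue a lower level in ND6. The column of *Gngt1* is blue in 9 of the 11 rows, and that of *Pde6a* is red in 10 of the 11.

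Of the 15 other cascade genes, 11 had a lower level in ND6 rods, as did 47.4% of all genes and 3 of the 9 members, and 4 had a higher one, and the median log2 ratio was −0.22. *Pdc*, phosducin, which binds the βγ subunits of transducin, was the highest at 8879 CPM in ND6 and 5632 CPM in WT, a ratio of 0.66 (0.65 to 0.66), and *Guca1b*, a guanylate cyclase activator, the lowest at 2032 and 2806 CPM, a ratio of −0.47. All 8 cone counterparts were higher in ND6 rods, 7 of them by at least 0.5, as were 19.5% of all genes, with a median of 0.83. *Pde6h* stood at 68.9 CPM in ND6 and 43.0 CPM in WT rods, and *Arr3* at 30.7 and 18.4 CPM. In cone-like cells, which made up 5.81% of ND6 and 4.44% of WT cells, 5 of the 8 were lower and 3 higher, and the median was −0.15. No share of all genes is given for that count. In barcodes of 10 to 100 UMIs *Pde6h* had 637 CPM in ND6 and 566 CPM in WT, above its level in rods of either library.

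Every other named class held transcripts of all 9 members. In amacrine-like cells the members stood between 18.7% and 28.5% of their level in rods in WT (78 cells) and between 27.3% and 41.7% in ND6 (304 cells), the lowest of any class in both. The medians over the 9 members were 37.8% and 48.7% in RPE-like, 42.3% and 44.0% in bipolar-like, 46.7% and 46.4% in microglia-like and 53.0% and 51.3% in Müller-like cells. Cone-like cells (556 WT and 1068 ND6) had 74.9% and 78.9%, and red-blood-cell-like barcodes 86.9% and 92.7%. Barcodes of 10 to 100 UMIs, 7324 in WT with a median of 17 UMIs and 8621 in ND6 with a median of 33, gave the cascade 4.46% and 4.43% of their UMIs, beside the 6.05% and 6.08% in rods. The unnamed cluster, left out of the comparisons of classes, gave the cascade 5.57% of its UMIs in WT and 4.34% in ND6.

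Of the 126 levels given by 9 genes, 7 classes and 2 libraries, 95 were below the level in barcodes of 10 to 100 UMIs of the same library, while 45.5% of all gene levels compared in the same way were. The interval lay below in 88 and above in 27. All 9 members were below in bipolar-like, amacrine-like, microglia-like and RPE-like cells of both libraries and in Müller-like cells of ND6, and 7 of 9 in Müller-like cells of WT. In these classes such a level was read as not told apart from free RNA. The comparison has a limit, since rods rich in *Malat1* were themselves below these barcodes for some members, *Gngt1* in both libraries among them. The count also depends on the barcodes compared with: against barcodes of over 200 and up to 400 UMIs, an alternative chosen after seeing the data, 63 of the 126 levels were below. No share of all genes was computed for that alternative. The low barcodes had no mtDNA limit. mtDNA-encoded UMIs took 50.4% (WT) and 22.1% (ND6) in those of over 200 and up to 400 UMIs, and 18.0% and 8.72% in those of 10 to 100. These UMIs count in the CPM, and their part was not tested. Of the 31 levels that were not below barcodes of 10 to 100 UMIs, 29 lay in 2 classes. In cone-like cells, 6 of 9 members in WT and 8 of 9 in ND6 were above, led by *Pde6a* at 0.66 and 0.83 on the log2 scale. In red-blood-cell-like barcodes, which red-cell globin genes led, 7 of 9 and 8 of 9 were above, led by *Gnb1* (0.60) in WT and *Pde6g* (1.03) in ND6.

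**Figure D4:**
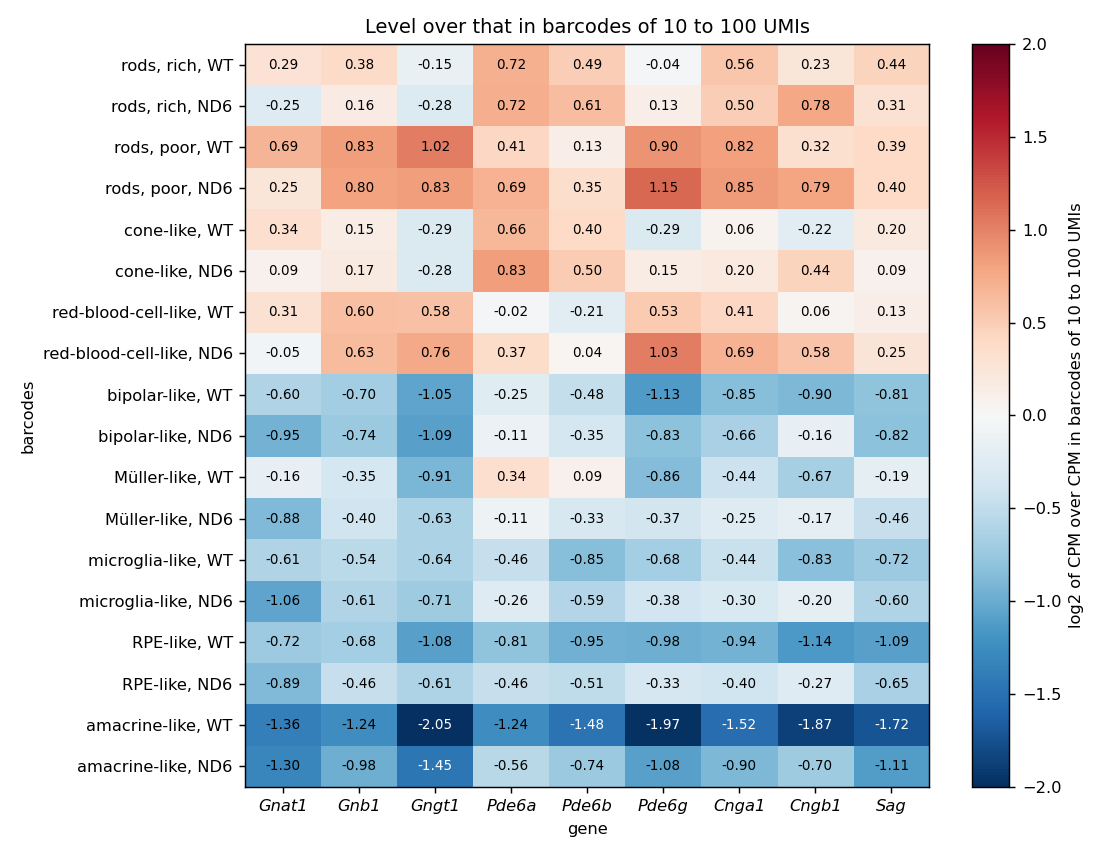
The log2 ratio of the CPM of each of the 9 members (columns) in a class over its CPM in barcodes of 10 to 100 UMIs of the same library, for rods rich and poor in Malat1 and 7 other classes in WT and ND6 (rows). Red marks a level above and blue one below those barcodes. Poor rods are red throughout, bipolar-like, microglia-like, RPE-like and amacrine-like cells are blue throughout, and rich rods are blue for *Gngt1* in both libraries.

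Poor rods were above these barcodes for all 9 members in both libraries, where 67.7% of genes in WT and 74.1% in ND6 were below, by 0.13 (*Pde6b*) to 1.02 (*Gngt1*) in WT and by 0.25 (*Gnat1*) to 1.15 (*Pde6g*) in ND6. Rich rods were not. *Gngt1* was lower in rich rods than in the barcodes of 10 to 100 UMIs by 0.15 in WT and by 0.28 in ND6, and *Gnat1* by 0.25 in ND6, and *Pde6g* stood at −0.036 in WT.

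The proportions of the members differed between classes. Cone-like cells had *Pde6a* above the median of the other 8 members, relative to rods, by 0.46 in WT and 0.45 in ND6, and *Gngt1* below it by 0.33 and 0.40. The pattern was not particular to them. *Pde6a* was above by 0.61 and 0.11 in Müller-like, 0.36 and 0.38 in bipolar-like and 0.25 and 0.20 in amacrine-like cells. *Gngt1* was below there by 0.50 and 0.093, 0.22 and 0.40, and 0.40 and 0.39. In RPE-like cells *Pde6a* was below, by 0.073 and 0.18. Red-blood-cell-like barcodes had the opposite pattern, *Gngt1* above by 0.44 and 0.47 and *Pde6a* below by 0.48 and 0.31. *Malat1* took 3.19% and 2.62% of the UMIs of cone-like cells and 0.668% and 0.404% of those of red-blood-cell-like barcodes. The 2 microglia-like clusters differed in amount: the cluster led by *Igkc*, *Tyrobp* and *Ctss*, with a median of 1315 UMIs in WT and 975.5 in ND6, had the members at a median of 71.3% and 68.5% of their level in rods. The cluster led by *Ccl4* and *Ccl3*, with a median of 7766 and 4946 UMIs, had them at 15.5% and 10.5%. Doublets and free RNA in these cells were not tested.

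Over 20 points (rich and poor rods, the 7 other classes and barcodes of 10 to 100 UMIs, in 2 libraries), the genes whose log2(CPM + 1) profile was most like that of the summed members were *Prph2*, a rod marker here (Pearson r of 0.989), *Guca1a* (0.988), *Vtn* (0.981), *Fabp12* (0.979) and *Rcvrn* (0.978), of 10217 genes with at least 500 UMIs. Among the members themselves *Cnga1* had the highest r, 0.98, and *Pde6a* (0.793) and *Pde6b* (0.83) the lowest. The points share libraries and free RNA, and the r values are descriptions.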

How the data were processed

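Single-cell suspensions of papain-digested retina were profiled with 10x Genomics 3′ chemistry, with 1 WT and 1 ND6 library. The deposited files hold raw UMI counts per gene and barcode, which the authors made with Cell Ranger 3.0.2 on mm10 per the submitters' processing notes, with no filter on cells. Totals were 77958836 (WT) and 80358255 (ND6) UMIs. Cells had over 400 UMIs, over 200 genes and at most 20% mtDNA-encoded UMIs. Counts were clustered in scanpy 1.11.5 on 3000 variable genes scaled within each library, with 30 principal components, 20 neighbours and Leiden resolution 1. The members, the 15 other cascade genes described, the cone counterparts except *Arr3*, *Malat1* and the mtDNA-encoded genes were left out. A cluster was named when at least 3 markers of a class were raised 2-fold over the rest and that class led its 10 leading genes. Rod-like clusters had no other class's markers there and at least 5 of 8 rod markers 1.5-fold above the named clusters other than photoreceptors and red blood cells. This rule was settled after the clusters were seen. Scrublet marked 0 WT and 1 ND6 cell, which was taken as a failed call, and doublets were kept.

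UMIs were summed per group and given as CPM with exact Poisson intervals, and log2 ratios with exact conditional (Clopper-Pearson) 95% intervals, in Python 3.11.15 with scipy 1.17.1. Intervals cover counting error only, and no p-value was computed, since cells of 1 library are not replicates. For the share of all genes, genes with at least 20 UMIs over both groups were used, 0.5 was added to each count, and called meant a log2 ratio of at least 0.5 in size. A further gene of the cascade is not reported here. All 9 members are named by rule, and other genes as the highest and lowest of their list. The members and lists were chosen with earlier results of these data known. Promoter windows are from RefSeq and transcript lengths from GENCODE M21, in which 32235 of 32285 gene IDs were found. Scripts were tested on simulated data. The alternatives tried were other cell filters, denominators, class rules, *Malat1* thresholds, thinning to 400 UMIs and other sets of low barcodes.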

Additional observations from a re-analysis of the deposited data

Results flagged for a closer look

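For 2 members the direction between the libraries differed between the groups of rods. *Gnat1* had a log2 ratio of ND6 over WT of −0.040 in rods rich in *Malat1* and of 0.067 in poor rods. *Cnga1* had −0.063 in rich and 0.031 in poor rods. For 1 member the direction between the groups of rods differed between the libraries: the log2 ratio of rich over poor rods for *Sag* was 0.049 in WT and −0.091 in ND6. Each of these directions depended on the processing. *Gnat1* took another sign in poor rods when thinned to 400 UMIs, and in both groups among rods of 1000 to under 2000 UMIs. *Cnga1* did so in poor rods with *Malat1* and mtDNA-encoded UMIs out of the denominator. *Sag* did so in WT among rods of 1000 to under 2000 UMIs. These differences were not tested, since each rests on 1 library per genotype.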

How the results depend on the processing

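No paired analysis was possible because each genotype has 1 library, and for the same reason no library could be left out. Values below are log2 ratios of the summed members, and the cause of each shift was not tested. The main values were −0.56 (rich over poor, WT), −0.56 (ND6), 0.0073 (ND6 over WT, all rods), −0.11 (rich rods) and −0.11 (poor rods). Rich over poor rods stayed below 0 under each alternative. In WT it was −0.42 without the mtDNA limit, −0.58 with *Malat1* and mtDNA-encoded UMIs out of the denominator, −0.61 as a mean over cells, −0.54 with classes set by marker UMIs, −0.59 without the highest 10% of doublet scores, −0.73 with *Malat1* thresholds of 5% and 1%, and −0.61 thinned to 400 UMIs. In ND6 it was −0.55 from 1000 UMIs per cell, −0.54 with the other denominator, −0.66 as a mean over cells, −0.57 without those doublet scores, −0.75 with the other thresholds and −0.64 thinned. ND6 over WT in all rods took either sign: −0.017 without the mtDNA limit, −0.026 with the other denominator, −0.069 as a mean over cells, −0.041 with marker classes, 0.018 without those doublet scores and −0.072 thinned. In rich rods it was, in that order, −0.13, −0.12, −0.16, −0.14, −0.097 and −0.14, and it was −0.10 from 1000 UMIs and −0.14 with the other thresholds. In poor rods it was 0.0088 without the mtDNA limit, −0.16 with the other denominator, −0.13 with marker classes, −0.12 without those doublet scores, −0.12 with the other thresholds and −0.12 thinned. Alternatives chosen after seeing the data were rods of 1000 to under 2000 UMIs (−0.87 and −0.76 for rich over poor, −0.14, −0.017 and −0.12 for ND6 over WT in all, rich and poor rods) and the 8 members other than *Gngt1* (−0.33 and −0.42, then 0.13, 0.0037 and 0.099). Against barcodes of over 200 and up to 400 UMIs, also chosen later, 63 of 126 levels were below, not 95. In those barcodes mtDNA-encoded UMIs took 50.4% in WT and 22.1% in ND6. Of 441 values of single members under alternatives, 24 had another sign than in the main setting, 0 of them among those called.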

Other observations

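*Meg3*, a long noncoding RNA that was highest in amacrine-like cells in both libraries (2461 CPM in WT and 5541 CPM in ND6), stood at 1.73 CPM in WT rods and 76.1 CPM in ND6 rods. In barcodes of 10 to 100 UMIs it stood at 39.8 CPM in WT and 1019.81 CPM in ND6, and in cone-like cells at 4.53 and 28.4 CPM. The gene is no member of the cascade and was picked after its values were seen.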
